A study of Mus musculus with 5 samples.

Results

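Ccl2, Ccl7, Ccl8, Ccl12, Ccl6, Ccl9 and Ccl24, which encode CC chemokines, and Ccr2, which encodes the receptor of several of them, were followed across the cells of mouse skin. These 8 genes were taken by symbol from a list of names, out of 31053 genes in the gene table, and all 8 were found. Droplet libraries of single cells had been made from 5 groups, with 1 library in each. The untreated dermis, the untreated epidermis and the imiquimod dermis came from wild-type C57BL/6 mice of 10 weeks, and imiquimod, an activator of Toll-like receptor signalling that is used to provoke psoriasis-like inflammation, had been put on the ear on 5 days running. The non-lesional epidermis (10 weeks) and the lesional skin (18 weeks, whole skin) came from mice of strain C57BL/6 and genotype K5. Pp6fl/fl. In that name Pp6 is the phosphatase PP6 and K5 the keratin gene whose promoter is active in basal keratinocytes; the line that carries the recombinase is not named in the sources used here. The body site of the 4 groups without imiquimod and the number of mice in any library are not given in the sources used here. Genotype, age, tissue (dermis or whole skin) and library, and imiquimod where used, cannot be told apart between lesional skin and the dermis libraries. Lesional skin and non-lesional epidermis share the genotype, but lesion, age, tissue (whole skin or epidermis) and library cannot be told apart there. Between the dermis libraries this holds for imiquimod and library, and between the epidermis libraries for genotype and library. Any difference in body site cannot be told apart in any of these comparisons either. All values below describe single libraries, and their 95% intervals cover counting error only.

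CC chemokines are small secreted proteins that bind to glycosaminoglycans on cells and matrix and draw leukocytes through receptors coupled to G proteins. CCR2, bound by CCL2, CCL7 and CCL12, guides monocytes out of the bone marrow and into inflamed tissue. Mouse CCL8 acts chiefly through CCR8, CCL6 and CCL9 through CCR1, and CCL24, an eotaxin, through CCR3 on eosinophils. In skin, resident macrophages, mast cells, fibroblasts and keratinocytes are all known sources of such chemokines.

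In the GENCODE vM21 annotation of build GRCm38, Ccl2 (ENSMUSG00000035385) lies on chromosome 11 from 82035571 to 82037453 and Ccl7 (ENSMUSG00000035373) from 82045712 to 82047525. Ccl12 (ENSMUSG00000035352), from 82101845 to 82103400, and Ccl8 (ENSMUSG00000009185), from 82115185 to 82116799, follow on the same plus strand. Ccl9 (ENSMUSG00000019122), from 83572919 to 83578636, and Ccl6 (ENSMUSG00000018927), from 83587882 to 83593087, are neighbours on the minus strand of the same chromosome. Ccl24 (ENSMUSG00000004814) lies on chromosome 5 from 135569937 to 135573049 on the minus strand. Ccr2 (ENSMUSG00000049103) lies on chromosome 9 from 124101950 to 124113557 on the plus strand. All 8 are annotated as protein-coding. Of the runs of 30 bases in their transcripts, 0% of those of Ccl2, Ccl7, Ccl8 and Ccl12 recur in another gene, and 1.08% of Ccl6, 3.95% of Ccl9, 0.155% of Ccl24 and 3.60% of Ccr2 do.

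The promoters of the neighbouring pairs Ccl8 with Ccl12 and Ccl6 with Ccl9 are shown. Each pair had similar profiles across cell classes in the data described below. Ccl2 and Ccl7, also neighbours with similar profiles, are not shown because no promoter window was matched for them. Each line gives the 250 bases before the start of the gene in RefSeq (GRCm38.p6), 5′ to 3′ on the strand of the gene. Capitals mark matches on either strand to TATAAAA (the TATA box), TGANTCA (AP-1) and the NF-kB motif. RefSeq promoter windows were matched for 5 of the 8 genes, and the windows shown are chr11:82114935-82115184 (Ccl8) and chr11:82101595-82101844 (Ccl12) on the plus strand, and chr11:83593088-83593337 (Ccl6) and chr11:83578637-83578886 (Ccl9) on the minus strand.
Ccl8: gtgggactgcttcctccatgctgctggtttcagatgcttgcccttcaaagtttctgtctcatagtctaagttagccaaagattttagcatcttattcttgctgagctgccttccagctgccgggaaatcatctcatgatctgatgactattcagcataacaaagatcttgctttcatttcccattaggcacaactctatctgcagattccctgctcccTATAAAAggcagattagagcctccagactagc
Ccl12: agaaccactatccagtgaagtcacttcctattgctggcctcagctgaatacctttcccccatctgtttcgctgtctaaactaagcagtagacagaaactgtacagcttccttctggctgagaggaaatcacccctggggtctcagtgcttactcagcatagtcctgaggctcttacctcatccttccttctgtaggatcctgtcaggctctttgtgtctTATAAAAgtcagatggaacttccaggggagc
Ccl6: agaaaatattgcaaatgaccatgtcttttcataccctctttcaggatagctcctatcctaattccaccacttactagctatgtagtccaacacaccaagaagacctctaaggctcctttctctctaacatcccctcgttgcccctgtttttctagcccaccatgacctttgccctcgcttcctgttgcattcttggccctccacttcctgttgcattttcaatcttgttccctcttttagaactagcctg
Ccl9: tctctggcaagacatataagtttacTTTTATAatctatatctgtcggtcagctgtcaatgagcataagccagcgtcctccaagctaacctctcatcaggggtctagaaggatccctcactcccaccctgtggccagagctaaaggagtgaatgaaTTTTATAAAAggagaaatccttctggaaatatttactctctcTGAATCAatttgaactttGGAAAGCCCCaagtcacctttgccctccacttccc

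Ccl8 and Ccl12 each had 1 TATA match, which began 32 and 31 bases before the start. Ccl9 had TATA matches at 225, 95 and 92 bases, of which the last 2 overlap, an AP-1 match (TGAATCA) at 53 bases and an NF-kB match at 35 bases, and Ccl6 had no match to these motifs. No window of these 4 genes held TTCNNNGAA, the STAT motif. Among 32851 RefSeq windows of the same length, 4.98% held the TATA motif, 6.75% AP-1, 7.02% STAT and 3.9% NF-kB. The windows of Ccl8 and Ccl12 were 54.1% identical over 259 aligned positions, and 40.6% to 49.6% was found for the other 9 pairs of the 5 windows, Ccr2 included. The longest run common to Ccl6 and Ccl9 was gccctccacttcc, 13 bases long, which begins 55 bases before the start of Ccl6 and 14 before that of Ccl9. Matches are letters in a window and do not show that a factor binds there.

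The libraries held 3020790 (untreated dermis), 41258087 (imiquimod dermis), 34376558 (lesional skin), 3946755 (untreated epidermis) and 21640310 (non-lesional epidermis) unique molecular identifiers (UMIs, 1 for each captured transcript). After filtering, 519, 4792, 2596, 898 and 2807 cells remained in the same order, with medians of 3401.5 to 8113.5 UMIs per cell. Cells were clustered without chemokine and chemokine receptor genes, and class names rest on marker genes alone. The tissue labels were borne out in part. The dermis libraries held 10 and 1 keratinocytes, and the epidermis libraries 2 and 1 fibroblasts, but the untreated dermis also held only 16 fibroblasts among its 519 cells. Macrophages and monocytes, dendritic cells, mast cells and neutrophils numbered 0 in both epidermis libraries. Libraries shared 0 to 27 cell barcodes, and lesional skin shared 0 with each of the others. A level is given as CPM (the gene's UMIs divided by all UMIs of the cells described, times 1000000), and a class was compared only where each library had at least 20 cells of it.

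Macrophages and monocytes held most UMIs of all 7 ligand genes in the untreated dermis, with 67.4% of Ccl2, 75.3% of Ccl7, 96.0% of Ccl8, 97.0% of Ccl12, 57.9% of Ccl6, 51.9% of Ccl9 and 91.2% of Ccl24, while being 45.9% of the cells. Dendritic cells held a further 44.0% of Ccl9, and the 16 fibroblasts held 20.5% of Ccl2. In the imiquimod dermis, where macrophages and monocytes were 51.1% of the cells, they still held 75.5% of Ccl2, 63.8% of Ccl7, 87.8% of Ccl8, 93.3% of Ccl12 and 91.1% of Ccl24. Lesional skin differed for the first pair of genes. There macrophages and monocytes, 10.2% of the cells, held 5.14% of the Ccl2 UMIs and 6.92% of the Ccl7 UMIs, and fibroblasts, 23.2% of the cells, held 55.8% and 54.7%. Ccl8 and Ccl12 stayed with macrophages and monocytes in lesional skin, at 83.9% and 90.4%. Enzyme digestion and sorting set how many cells of each class entered a library, so these shares describe the libraries.

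**Figure D1:**
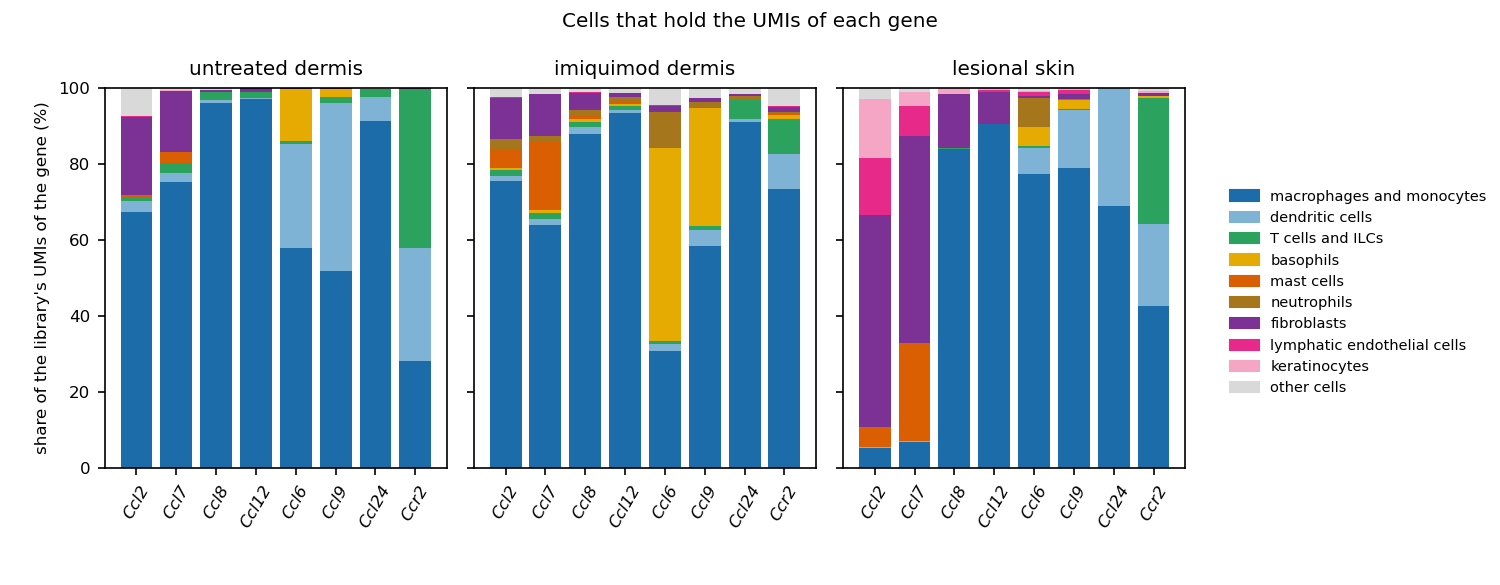
Share of each gene's UMIs (vertical axis, percent of the UMIs in the library) held by each cell class (colours) in the untreated dermis, the imiquimod dermis and the lesional skin, 1 library each. Macrophages and monocytes hold 67.4% of Ccl2 in the untreated dermis and 5.14% in lesional skin, where fibroblasts hold 55.8%, and basophils hold 50.7% of Ccl6 in the imiquimod dermis.

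The levels themselves differed between libraries within macrophages and monocytes (238 cells of the untreated dermis, 2447 of the imiquimod dermis and 265 of lesional skin). Ccl2 was at 966 CPM (912 to 1023) in the untreated dermis, 408 (399.8 to 417) in the imiquimod dermis and 156 (142 to 172) in lesional skin. Ccl7 was at 1419 CPM (1354 to 1488), 443 (434 to 452) and 123 (110.4 to 137) in the same order. For both genes the untreated dermis was highest and lesional skin lowest, with no overlap of the intervals. In lesional skin 27 of the 265 cells held 90.1% of the Ccl2 and 95.8% of the Ccl7 UMIs, up to 104 of Ccl2 in a cell. In the untreated dermis 24 of 238 held 67.1% and 70.1%. The intervals take no account of this concentration. Against the untreated dermis, Ccl2 was 2.37-fold lower (2.22 to 2.51) in the imiquimod dermis and 6.19-fold lower (5.53 to 6.93) in lesional skin. The corresponding values for Ccl7 were 3.20-fold lower (3.04 to 3.37) and 11.5-fold lower (10.2 to 13).

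Ccl8 was at 2294 CPM (2210.3 to 2380.5) in the untreated dermis, 818 (805 to 829.9) in the imiquimod dermis and 1326 (1283 to 1370.1) in lesional skin. It was 2.81-fold lower (2.70 to 2.92) after imiquimod and 1.73-fold lower in lesional skin. The Ccl12 level, 212 CPM (187 to 239.8) in the untreated dermis and 246 (239 to 253) in the imiquimod dermis, was 55.4 CPM (46.9 to 65) in lesional skin. Ccl12 thus differed little after imiquimod (ratio 1.16, 1.02 to 1.32) and was 3.84-fold lower (3.13 to 4.72) in lesional skin. Ccl24, the eotaxin, was at 280.0 CPM (251 to 311) in the untreated dermis, 22.2 (20.3 to 24.3) in the imiquimod dermis and 34.3 (27.7 to 42) in lesional skin. That is 12.6-fold lower (10.9 to 14.5) after imiquimod and 8.16-fold lower (6.47 to 10.4) in lesional skin.

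Ccl6 and Ccl9, the ligands of CCR1, had the opposite order. Ccl6 was at 308 CPM (277 to 340.3) in the untreated dermis, 642 (632 to 653) in the imiquimod dermis and 1446 (1401 to 1492) in lesional skin. Ccl9 was at 542 CPM (502 to 585), 639 (628 to 649) and 1436 (1391 to 1482). Lesional skin was highest for both genes, 4.70-fold (4.23 to 5.24) above the untreated dermis for Ccl6 and 2.65-fold (2.44 to 2.88) for Ccl9. After imiquimod Ccl6 was 2.09-fold higher (1.88 to 2.32), an interval that spans 2, and Ccl9 1.18-fold higher (1.09 to 1.28). The Ccl6 log2 ratio of 1.06 after imiquimod was 0.84 once each cell was thinned to 2000 UMIs. T cells, not known as a source, were at 8.01 CPM of Ccl6 in the untreated dermis and 150 in the imiquimod dermis. The part of such RNA in the macrophage difference was not tested.

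Counting a gene as different at a ratio of at least 2, among genes with 10 or more UMIs summed over the compared libraries and 10 or more CPM in 1 of them, 2 of the 8 genes were higher after imiquimod (Ccl6 and Ccr2) and 4 were lower (Ccl2, Ccl7, Ccl8 and Ccl24). Over all 7278 genes measured in these cells 6.76% were higher and 22.2% lower. The median log2 ratio was -0.52 over the 8 genes and -0.32 over all genes. In lesional skin against the untreated dermis 3 were higher (Ccl6, Ccl9 and Ccr2) and 4 lower (Ccl2, Ccl7, Ccl12 and Ccl24), where 13.7% of 7749 genes were higher and 7.46% lower. Here the median was -1.37 over the 8 genes and 0.13 over all. Both comparisons share the untreated dermis library. Between lesional skin and the imiquimod dermis, Ccl6 and Ccl9 were each 2.25-fold higher, and Ccl2, Ccl7 and Ccl12 were 2.62, 3.59 and 4.44-fold lower, against 27.2% higher and 4.12% lower of 7436 genes. The median gene was itself 0.51 higher on the log2 scale in that comparison, and relative to it 0 of the 8 genes remained at 2-fold higher.

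Markers of other cell types also differed between the libraries in these cells, in an order that varied with the marker list. The summed level of 12 neutrophil markers in macrophages and monocytes was 294 CPM in the untreated dermis (3 markers at 0), 3492 in the imiquimod dermis (0 at 0) and 1174 in lesional skin (1 at 0). The 9 mast cell markers summed to 186 CPM (2 at 0), 125 (0 at 0) and 30.3 (1 at 0), and the 6 basophil markers to 29.3 (3 at 0), 46.2 (0 at 0) and 6.27 (1 at 0). The part of such RNA in the differences was not tested.

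**Figure D2:**
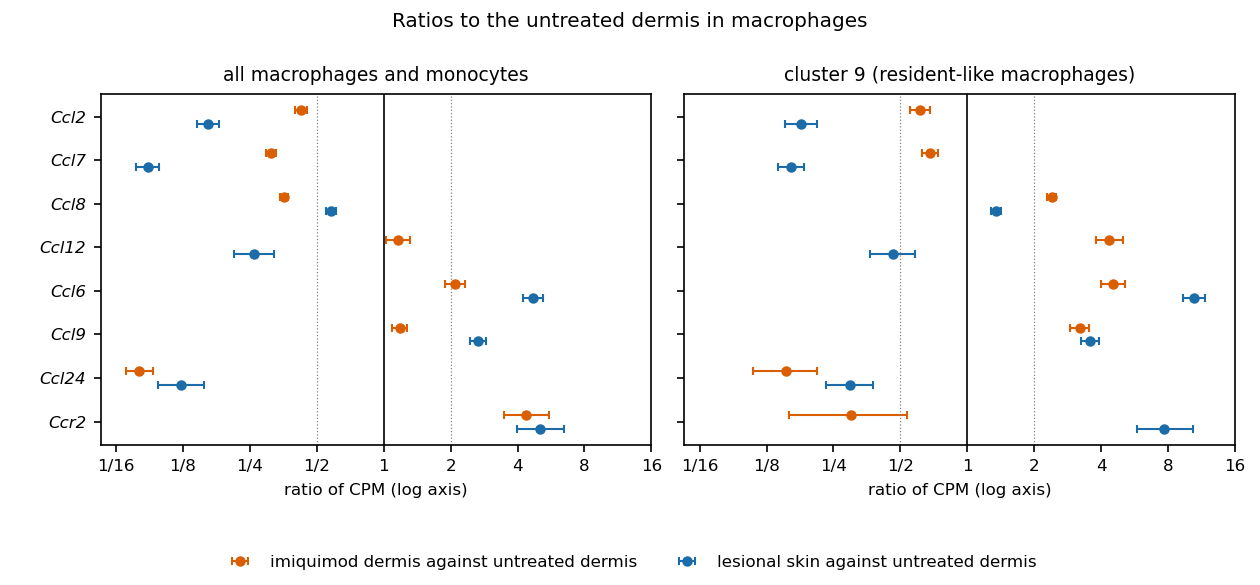
Ratio of the CPM of each gene to its CPM in the untreated dermis (log axis, dotted lines at 2-fold), for all macrophages and monocytes and for cluster 9 alone, with 95% counting intervals; 1 library per group. Ccl8 in the imiquimod dermis lies 2.81-fold below the untreated dermis over the whole class and 2.40-fold above it within cluster 9.

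The clusters behind this class differed between libraries. In the untreated dermis 87.8% of its cells (209) were in cluster 9, whose leading genes were those of resident-like macrophages (Cd163, Folr2, F13a1 and Cbr2). Only 3.07% (75 cells) were there in the imiquimod dermis, where 57.2% were in cluster 0, led by Mmp12 and Ms4a7, and 33.1% in cluster 2, a monocyte-like cluster led by Chil3, Plac8 and Ly6c2. Lesional skin had 38.9% in cluster 2, 38.1% (101 cells) in cluster 9 and 21.5% in cluster 0. A class level therefore combines the level per cluster with the number of cells from each.

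Within cluster 9, Ccl8 was at 2530.1 CPM (2437 to 2626) in the untreated dermis, 6072 (5919 to 6228) in the imiquimod dermis and 3412 (3299 to 3529) in lesional skin. This put the imiquimod dermis 2.40-fold higher (2.29 to 2.51), the reverse of the class as a whole. Ccl12 was at 233, 1016 and 108 CPM, 4.36-fold higher after imiquimod and 2.16-fold lower in lesional skin. Ccl6 stood at 288, 1307 and 3015 CPM and Ccl9 at 513, 1645 and 1831, both lowest in the untreated dermis. Ccl6 was 4.54-fold higher after imiquimod and 10.5-fold higher (9.33 to 11.8) in lesional skin, and Ccl9 3.21 and 3.57-fold higher.

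Ccl2 (955, 585 and 171 CPM) and Ccl7 (1483, 1008 and 239.5 CPM) kept in cluster 9 the order they had over the class. They were 1.63 and 1.47-fold lower after imiquimod, and 5.60 and 6.19-fold lower in lesional skin. For Ccl24 the values were 292, 44.8 and 86.8 CPM, 6.53-fold lower (4.76 to 9.17) after imiquimod and 3.37-fold lower in lesional skin. Within cluster 9 and against the untreated dermis, 4 of the 8 genes were thus at least 2-fold higher after imiquimod and 2 lower, where 8.57% of 7382 genes were higher and 23.7% lower. In lesional skin 3 were higher and 4 lower, where 15.3% of 7806 genes were higher and 7.4% lower. The limit given above for the lesional cells of cluster 9 holds for these counts too. The median gene of cluster 9 was at -0.23 after imiquimod and 0.19 in lesional skin on the log2 scale.

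The other clusters held lower Ccl8. In the imiquimod dermis Ccl8 was at 839 CPM in cluster 0, 96.7 in cluster 2 and 442 in cluster 20, a cluster of cycling macrophages, against 6072 in cluster 9. In lesional skin it was at 235 CPM in cluster 0 and 0 in cluster 2. The UMIs were concentrated in few cells, since 245 of 2447 macrophages and monocytes held 90.0% of the Ccl8 UMIs in the imiquimod dermis and 27 of 265 held 97.3% in lesional skin, against 64.4% in 24 of 238 in the untreated dermis. Cells thinned to 2000 UMIs held a Ccl8 UMI in 24.6% of this class in the imiquimod dermis, and in 23.8% of the neutrophils of the same library, which are not known as a source, at median depths of 7543 and 3157.5 UMIs before thinning. The share of cells therefore did not set the class apart from neutrophils, while its level did, at 818 against 144 CPM. In cluster 9 of the imiquimod dermis the share was 78.1%.

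Mast cells had the highest Ccl7 and Ccl2 levels of any class in both inflamed libraries. Ccl7 was at 16474 CPM (15854 to 17111) in 127 mast cells of the imiquimod dermis and 6127 (5790.1 to 6479) in 126 of lesional skin, 2.69-fold lower (2.51 to 2.88). It was found in 95.3% and 78.6% of these cells, with a median of 13 and 3 UMIs per cell and highest values of 126 and 130. Ccl2 was at 3565 CPM (3280.4 to 3869) and 2158 (1960.1 to 2371), 1.65-fold lower in lesional skin, and found in 80.3% and 61.1% of cells. Mast cells were shallow, with medians of 855 and 1204 UMIs per cell, so a high CPM here stands for a modest number of molecules. Though 2.65% of the cells of the imiquimod dermis, they held 18.1% of its Ccl7 and 5.03% of its Ccl2 UMIs, and in lesional skin 4.85% of cells held 25.6% of Ccl7. The untreated dermis had 5 mast cells, too few for a level.

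Of 6 genes measured in mast cells, 0 were higher and 5 lower in lesional skin than in the imiquimod dermis, where 25% of 3901 genes were higher and 16.1% lower. The median gene was 0.14 higher on the log2 scale. Apart from Ccl7, those 5 were under 10 CPM in lesional mast cells and counted as measured only through the imiquimod dermis, and they rest on few UMIs or few cells. Ccl8, at 884 CPM against 4.96, had 95.1% of its 143 UMIs in the imiquimod dermis in 13 cells and 86 of them in 1 cell. Ccl12, Ccl6 and Ccl9 had 26, 34 and 22 UMIs in the imiquimod mast cells. The 15 macrophage markers summed to 4239 CPM in the imiquimod mast cells (0 at 0) and 4143 in the lesional ones (8 at 0), and their part in these levels was not tested.

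Basophils were the chief source of Ccl6 in the imiquimod dermis. The 260 basophils, 5.43% of its cells, held 50.7% of the Ccl6 UMIs and 31.1% of the Ccl9 UMIs of the library. Ccl6 was at 19767 CPM (19509 to 20027) and Ccl9 at 6363 (6217 to 6511), with medians of 69.5 and 22 UMIs per cell and highest values of 407 and 174. After thinning to 2000 UMIs, 97.5% of 240 basophils held both. Of 5 eosinophil markers, the defining genes of another granulocyte, 3 were at 0 in these cells and all 5 summed to 15 CPM. Lesional skin had 11 basophils, with 246 Ccl6 UMIs, and the untreated dermis 1, with 90 of the library's 653, both below the number of cells set for a level.

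Neutrophils, absent from the untreated dermis (0 cells), held Ccl6 at 1913 CPM (1855 to 1972) in 578 cells of the imiquimod dermis and 1668 (1506 to 1842) in 74 of lesional skin. These levels differed by 1.15-fold. They held 9.25% of the Ccl6 UMIs of the imiquimod dermis. The other 7 genes lay between 0 and 34.5 CPM in the neutrophils of lesional skin. Those of the imiquimod dermis held 313 UMIs of Ccl2, 221 of Ccl7, 309 of Ccl8 and 301 of Ccl9, against 4095 of Ccl6.

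Fibroblasts carried Ccl2 and Ccl7 in both inflamed libraries (346 cells in the imiquimod dermis and 603 in lesional skin). Ccl2 was at 350.2 CPM (331 to 370.2) in the imiquimod dermis and 553 (538 to 569.7) in lesional skin, 1.58-fold higher, and Ccl7 at 453 and 318 CPM, 1.42-fold lower. Of 7 genes measured, 0 were at least 2-fold higher in lesional skin and 5 were lower, against 37.5% higher and 7.35% lower of 8879 genes. Of these 5, Ccl12, Ccl6, Ccl9 and Ccr2 were under 10 CPM in lesional fibroblasts and counted as measured only through the imiquimod dermis, so the count is no support for a difference. Ccl8 was 3.44-fold lower, at 254 and 73.8 CPM. T cells were at 83.5 CPM of Ccl8 in the imiquimod dermis and 4.98 in lesional skin. The part of such RNA in the fibroblast values was not tested. For Ccl6, at 206 and 2.41 CPM (85.2-fold lower), the imiquimod value lies near that in T cells of the same library (150.4 CPM), which are not known as a source. Ccl9 (71.3 CPM, T cells 80.5) and Ccl12 (17 CPM, T cells 19.8) also lay at T cell values there. With Ccl2 taken as a mean of the cells' CPM, or after thinning, its log2 ratio of 0.66 was 1.43 or 1.40. The median gene was 0.70 higher on the log2 scale in lesional fibroblasts, and relative to it Ccl2 was at -0.03.

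Few fibroblasts accounted for the Ccl2 level in lesional skin. There 61 of the 603 cells held 95.1% of the Ccl2 UMIs, up to 555 in a cell, while in the imiquimod dermis 35 of 346 held 76.9%. For Ccl7 such cells held 79.3% in lesional skin and 76.4% in the imiquimod dermis, and 43.1% of the cells of cluster 7 held a Ccl7 UMI. Cluster 7, with 490 lesional fibroblasts, was at 619 CPM of Ccl2 and 374 of Ccl7, and cluster 28, with 88, at 227 CPM of Ccl2 and 2.0 of Ccl7. Most imiquimod fibroblasts (335) were in cluster 11, at 359 and 432 CPM. Fibroblasts of the 2 libraries were thus compared across different clusters.

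Lymphatic endothelial cells and keratinocytes also held Ccl2 in lesional skin. The 85 lymphatic endothelial cells were at 1107 CPM (1046 to 1171) of Ccl2 and 334 of Ccl7, with a Ccl2 UMI in 22.4% of them and 96.5% of the UMIs in 9 cells. They were 3.27% of the cells and held 15.1% of the Ccl2 UMIs. The 10 fibroblast markers summed to 2679 CPM in them (0 at 0), and the part of that RNA was not tested. Blood vascular endothelial cells were at 50.6 CPM and pericytes or smooth muscle cells at 79.1 CPM.

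Ccl2 in keratinocytes was at 10.1 CPM (6.30 to 15.2) in the untreated epidermis, 5.04 (3.99 to 6.29) in the non-lesional epidermis and 117 (111 to 124) in lesional skin. The first pair differed by 1.99-fold, with 4.1% of 7784 genes at least 2-fold higher and 2.08% lower. Their keratinocytes were mostly in different clusters (57.4% of the untreated ones in cluster 12, 51.1% of the non-lesional ones in cluster 3), and 19 of the 22 untreated Ccl2 UMIs came from 3 cells of cluster 13. Lesional skin was 23.2-fold above the non-lesional epidermis of the same genotype (18.5 to 29.6), with Ccl7 at 17 against 0.447 CPM, 37.9-fold higher (18.0 to 95.7). Both genes were under 10 CPM in the non-lesional epidermis and counted as measured only through lesional skin, so their being higher was fixed by that limit; 22.5% of 8589 genes were higher and 7.65% lower. There the median gene was 0.27 higher on the log2 scale. Within cluster 16, which both libraries shared, Ccl2 was at 186 CPM in 137 lesional cells and 5.43 in 94 non-lesional cells. Cluster 21, also shared, was at 12.0 CPM in 39 lesional cells and 2.67 in 81 non-lesional cells. In lesional skin Ccl2 was at 180.1 CPM in cluster 24 and 11.6 in cluster 26. Here too 42 of 416 cells held 95.2% of the UMIs, up to 282 in a cell. The 10 fibroblast markers summed to 289.8 CPM in lesional keratinocytes and 35.9 in non-lesional ones, and the part of such RNA was not tested.

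Dendritic cells (76, 370 and 104 cells in the untreated dermis, the imiquimod dermis and lesional skin, all cluster 5) held Ccl9 at 743, 239 and 612 CPM, 3.11-fold lower after imiquimod. Ccl6 was at 236, 187 and 284 CPM there. Its imiquimod value lay between those of T cells (150 CPM) and fibroblast cluster 11 (211 CPM) of the same library. After imiquimod 2 of 8 genes measured were higher and 2 lower than in the untreated dermis (12.2% and 15.1% of 7020 genes), and in lesional skin 1 of 7 was higher and 3 lower (20.2% and 9.03% of 7420). Between lesional skin and the imiquimod dermis 3 of 8 were higher and 3 lower (21.9% and 5.4% of 7216). Of these calls, all but Ccl8 and Ccl9 after imiquimod, Ccl2 and Ccr2 in lesional skin, and Ccl9 and Ccr2 between the inflamed libraries had 1 library under 10 CPM. The median log2 ratio over all genes was -0.06, 0.20 and 0.27 in these 3 comparisons. Ccl24 was at 31.6, 0.710 and 34.5 CPM, and in lesional skin its 42 UMIs came from 2 of 104 cells. Ccl8, at 29.0 and 93.3 CPM in the dermis libraries and 0 in lesional skin, was below its level in the neutrophils of the imiquimod dermis (144 CPM). The Ccl2 log2 ratio of -1.77 between lesional skin and the untreated dermis turned to 0.70 when barcodes with fewer than 500 genes or 10% or more of mitochondrial UMIs were dropped.

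Ccr2, the receptor, was found in macrophages and monocytes, dendritic cells and T cells with innate lymphoid cells (ILCs). In macrophages and monocytes it was at 62.7 CPM (49.5 to 78.3) in the untreated dermis, 273 (266 to 279.7) in the imiquimod dermis and 316 (295 to 338) in lesional skin. It was 4.35-fold higher (3.47 to 5.52) after imiquimod and 5.05-fold higher (3.99 to 6.46) in lesional skin. These cells held 28.2%, 73.3% and 42.5% of the Ccr2 UMIs of the libraries. In the untreated dermis T cells and ILCs held more, 41.8%, and dendritic cells 29.7%.

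Among the clusters of macrophages and monocytes, Ccr2 was highest in the monocyte-like cluster 2, at 466 CPM (449 to 483) in the imiquimod dermis and 451 (407 to 498) in lesional skin, values whose intervals overlap. In cluster 0 it was at 231 and 66.3 CPM and in the cycling cluster 20 of the imiquimod dermis at 111. The resident-like cluster 9 was at 50.8 CPM (38.4 to 66) in the untreated dermis, 15.3 (8.54 to 25.2) in the imiquimod dermis and 391 (353 to 432) in lesional skin. Cluster 9 thus was 3.33-fold lower (1.86 to 6.34) after imiquimod, where the class was higher, and 7.70-fold higher (5.80 to 10.4) in lesional skin. Its imiquimod value rests on 15 UMIs and lies below the 29.8 CPM of fibroblast cluster 11 in that library. Fibroblasts are taken as background for Ccr2 below, so the imiquimod value is at the floor. The cells grouped in cluster 9 differed in content between libraries, since before thinning a Ccl8 UMI was held by 71.8% of the untreated, 97.3% of the imiquimod and 37.6% of the lesional cells, and the lesional cells may not be of 1 kind.

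Within lesional cluster 9 the receptor and Ccl8 were largely in different cells. Of 93 cells thinned to 2000 UMIs, 34.4% held Ccl8 and 35.5% held Ccr2, and 2 cells (2.15%, 0.26 to 7.55) held both, where the product of the shares is 12.2%. Over all lesional macrophages and monocytes, 2 of 232 cells held both (0.862%, product 5.35%). For the 6 pairs of Ccl2, Ccl7, Ccl8 and Ccl12 in macrophages and monocytes, the interval of the share with both lay above the product for 1 pair in the untreated dermis (Ccl2 with Ccl7), 5 in the imiquimod dermis (all but Ccl2 with Ccl8) and 5 in lesional skin (all but Ccl2 with Ccl12), and it held the product for the others. Ccl8 and Ccl12 were in the same cell in 4.31% of lesional macrophages and monocytes (product 1.14%). Ccl2 and Ccl7 were together in 32.4% of untreated (product 24.1%) and 17.3% of imiquimod macrophages and monocytes (product 10.3%), and in 9.36% of lesional fibroblasts (product 2.97%). These shares are descriptions, and cells of 1 library are not replicates.

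**Figure D3:**
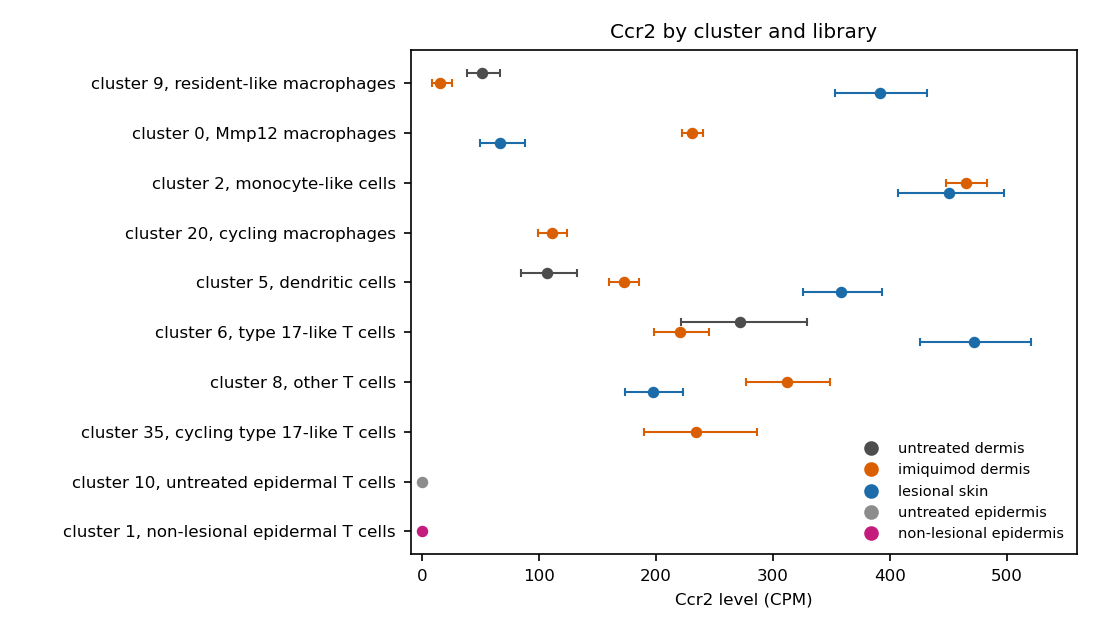
Ccr2 level (CPM, horizontal axis) with 95% counting intervals in clusters of macrophages, dendritic cells and T cells, by library (colours). Cluster 9 is at 50.8, 15.3 and 391 CPM in the untreated dermis, the imiquimod dermis and lesional skin, and the main T cell cluster of each epidermis library is at 0.

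In dendritic cells Ccr2 was at 107 CPM (84.8 to 133), 172 (160.1 to 185) and 358 (326 to 394) in the untreated dermis, the imiquimod dermis and lesional skin. This was 1.61-fold higher after imiquimod and 3.36-fold higher (2.64 to 4.31) in lesional skin, with no overlap of the 3 intervals. T cells and ILCs were at 228 CPM (188 to 274), 251 (233 to 269.8) and 304 (281 to 328), ratios of at most 1.33. Cluster 6, type 17-like T cells led by Il22, Il17f and Il17a, was at 272 CPM (222 to 329.5), 221 (198 to 245) and 472 (426 to 521). Cluster 8, other T cells, was at 312 CPM in the imiquimod dermis and 197 in lesional skin.

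The T cells of the epidermis differed from those of the dermis. Their main clusters held 0 Ccr2 UMIs, which allows up to 2.05 CPM in 356 cells of the untreated epidermis and 0.933 CPM in 917 cells of the non-lesional epidermis. After thinning, 27.8%, 36.8% and 34.4% of T cells and ILCs held a Ccr2 UMI in the untreated dermis, the imiquimod dermis and lesional skin, 16.2%, 26.1% and 39.2% of dendritic cells, and 8.94%, 39.9% and 34.5% of macrophages and monocytes. The background was 0.247% in lesional keratinocytes (median 21220 UMIs before thinning), 6.21% in imiquimod fibroblasts (8429) and 6.00% in imiquimod neutrophils.

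Other genes of the pathway were read in macrophages and monocytes from lists of known family members. Of 13 other CC chemokine genes 5 were measured after imiquimod, and 3 were at least 2-fold higher than in the untreated dermis and 0 lower (6.76% and 22.2% of all genes). They were Ccl5 (66.3 against 25.2 CPM), Ccl17 (24.8 against 8.95) and Ccl21a (26.8 against 6.51), of which the last 2 were measured only through the imiquimod dermis. In lesional skin 3 were measured and 0 differed by 2-fold (13.7% of all genes higher and 7.46% lower). Among other receptor genes, Cx3cr1, the fractalkine receptor, was at 7.32 CPM in untreated cells, 115 in the imiquimod dermis and 146 in lesional skin. Ccr1, the receptor of CCL6 and CCL9, was at 30.9, 86.5 and 202 CPM, and Ccr7, which guides cells to lymph nodes, at 24.4, 7.31 and 0.738. Cx3cr1 was under 10 CPM in the untreated dermis and counted as measured only through the other library. Ccr7 was under 10 CPM in both inflamed libraries and counted only through the untreated dermis. The direction of these calls was fixed by that limit.

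Of 9 growth factor and receptor genes 5 were measured against the untreated dermis, with 1 higher and 1 lower after imiquimod and 3 higher and 0 lower in lesional skin, beside the same shares over all genes (6.76% and 22.2%, then 13.7% and 7.46%). Csf1r, the receptor on which macrophages depend, was at 777 CPM in the untreated dermis and 216 in the imiquimod dermis, 3.61-fold lower. Csf3r, a receptor of neutrophils, was at 8.14 CPM in untreated cells, 35.6 in the imiquimod dermis and 43.9 in lesional skin, beside the neutrophil marker sums given above. Of 10 cytokine and feedback genes 8 were measured, and Il1b and Il6 were higher in both comparisons and 0 lower, again beside those shares. Il6 and Csf3r were under 10 CPM in the untreated dermis and measured only through the other library. Il1b was at 166, 844 and 857 CPM and Il6 at 3.26, 24.9 and 23.6. Of 5 atypical receptor genes 1 was measured, Ccrl2, at 51.3 CPM in the untreated dermis and 146 in lesional skin. The median log2 ratios of the lists of other CC chemokines, growth factors and cytokines were 1.39, 0.44 and -0.34 after imiquimod and 0.38, 1.27 and 0.33 in lesional skin, beside -0.32 and 0.13 over all genes.

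Over 32 pairs of class and library, the genes with the most similar profiles, by Pearson's r of log2(CPM + 5) among 7840 genes, followed the cell classes above. For Ccl7 they were the mast cell protease genes Cma1 (0.81), Mcpt4 (0.80) and Cpa3 (0.75), and for Ccl2 Rab31 (0.67), Cma1 (0.67) and Mcpt4 (0.65). Ccl8 was most like Pf4 (0.93), Ms4a7 (0.90) and F13a1 (0.87), and Ccl12 most like the same genes (Ms4a7 0.92, Pf4 0.90 and F13a1 0.86), which are markers of macrophages. Ccl24 was most like Cd163 (0.94), Cd209b (0.91) and Fcna (0.90). Ccl6 was most like Cyp4f18 (0.94), Ccl3 (0.94) and Clec4e (0.92), Ccl9 most like C3ar1 (0.88), Pld4 (0.87) and Lyz2 (0.85), and r with Ccr2 was 0.91 for Ms4a6b and 0.85 for Ccl5. Between the genes themselves, r was 0.89 for Ccl2 with Ccl7, 0.93 for Ccl8 with Ccl12 and 0.89 for Ccl6 with Ccl9. The points share libraries and cells, so these values describe the data and carry no test.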

How the data were processed

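The deposited values were UMI counts per gene and cell barcode, without normalization, from libraries made with the Chromium 3′ v3 kit after removal of dead cells by FACS, per the labels. CASAVA and Cell Ranger with mm10 were used, per the submitters' processing notes, with versions not given in the sources used here. The matrices carry software version 3.0.2, per the file headers.

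From these counts, barcodes with at least 200 genes and under 20% mitochondrial UMIs were kept, and doublets were removed by score (0.8% per 1000 barcodes), which left 11612 of 13288. Cells were clustered jointly, without integration, on 2000 variable genes that left out 70 chemokine and receptor genes (30 components, 15 neighbours, Leiden resolution 1, 37 clusters). Clusters were named from marker lists (a minimum score of 0.2, with 3 or more markers each found in a share of 0.2 of the cells; a cluster whose second class reached a share of 0.7 of the first was called mixed), and these thresholds were set after seeing the data. Counts were summed per class and library. With 1 library per group there was no test across samples; intervals are exact Poisson, Clopper-Pearson or conditional binomial, at 95%, and a library at 0 was set to 3 counts. Genes named beside the 8 were pathway genes at least 2-fold different in the class compared (at most 4 of a list) and the 3 most alike by profile. The 8 genes and all lists were chosen with earlier results of these data known.

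On data simulated from the real class totals, 3-fold differences were recovered for 98%, 93% and 99% of changed genes in macrophages (imiquimod against untreated, lesional against untreated, lesional against imiquimod), 97% in fibroblasts and 76% in mast cells, where 12.8% of unchanged genes were also called. Intervals held the true ratio for 95.4% to 96.9% of genes. The simulated counts were Poisson draws, which is what the intervals assume, so this coverage was set by design. The concentration of UMIs in few cells was not simulated, so these rates check the calculation and not the spread of real cells. RNA free in the suspension was not removed. 1 gene that the rule would name, and the counts of the receptor list, are not reported here. Protein sequences were not used here, and the TATA motif and the windows of Ccl6, Ccl9 and Ccr2 were added after the windows were seen. The 14 alternative settings are in the closing section. Python 3.11.15, numpy 2.4.6, scipy 1.17.1, scikit-learn 1.9.0, scanpy 1.11.5, leidenalg 0.10.2, igraph 0.11.9 and matplotlib 3.10.9 were used.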

Additional observations from a re-analysis of the deposited data

Results flagged for a closer look

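In the imiquimod dermis against the untreated dermis, Ccl8 had a log2 ratio of 1.69 in dendritic cells and -1.49 in macrophages and monocytes, opposite directions in 2 classes of the same libraries. The Ccl8 level of the dendritic cells (93.3 CPM after imiquimod) was below that of neutrophils in the same library (144 CPM). In lesional skin against the imiquimod dermis, Ccr2 had a log2 ratio of 1.06 in dendritic cells and -3.99 in fibroblasts, where it was at 28.9 CPM in the imiquimod dermis and 1.81 CPM in lesional skin. Fibroblasts were taken above as background for Ccr2, so their ratio compares background values, of which the lesional one was under 10 CPM. The difference between the classes was not tested in either case, since each group has 1 library.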

How the results depend on the processing

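Over 14 alternative settings, 955 log2 ratios of single genes stayed within the counting interval of the value in the report, 168 moved outside it and 1 changed sign. That one was Ccl2 in dendritic cells of lesional skin against the untreated dermis, at 0.70 with at least 500 genes and under 10% mitochondrial UMIs against -1.77. Levels in CPM were counted as the same for 149 values and as moved for 33. Percentages of cells were less stable, with 31 the same and 66 moved. Of the genes higher in macrophages and monocytes after imiquimod (2), 1 was left at clustering resolution 0.5, after thinning to 2000 UMIs and at 3-fold. Of those lower there (4), 2 were left at 3-fold. The 2 genes higher there in lesional skin against the imiquimod dermis became 0 when centred on the median of all genes, 4 at 1.5-fold and 0 at 3-fold. In fibroblasts, 0 higher became 1 with the mean of the cells' CPM, after thinning and at 1.5-fold, and 5 lower became 3 with at least 50 UMIs and 50 CPM, which also left 2 of the 5 lower in mast cells. The stricter limits on size and counts lower these numbers by construction, and the cause of the other changes was not tested. The class with the highest level was the same in every setting for 23 of 26 pairs of gene and library. The exceptions were Ccl8 in the imiquimod dermis, Ccl24 in lesional skin and Ccr2 in lesional skin. No paired analysis was possible because each group has 1 library. In mast cells, with medians of 855 and 1204 UMIs per cell, levels rest on few UMIs.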
